A study of Mus musculus with 108 samples.

Results

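Single mouse oocytes lacking Exosc10 were compared before and after 3 hours in culture, using the libraries of polyadenylated (polyA) RNA. The knockout oocytes were all those titled GV or GV3h with the genotype cKO in the polyA libraries. They came to 26 of the 108 samples of the series and of its 64 polyA libraries: 15 oocytes at GV and 11 at GV3h. GV is the germinal vesicle stage, in which the oocyte is arrested in meiotic prophase, and GV3h is the same stage with 3 hours added. The labels give M2 medium for the culture of both, and give no time in M2 for the oocytes labelled GV. Both groups carried the oocyte-specific Exosc10 knockout. The labels name neither the Cre line nor the deleted part of the gene, nor the strain or the age of the mice. The GV oocytes came from animals V857 (5 oocytes) and V888 (10), and the GV3h oocytes from V946 (4), V983 (3) and V993 (4), where the number in the title was read as the female. Control oocytes, labelled with that word and no further genotype, were handled in the same way: 7 at GV (females V856 and V889) and 8 at GV3h (V951, V982 and V995). No female gave oocytes of both stages, so stage and female cannot be told apart within a female.

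Exosc10 is a 3′ to 5′ exoribonuclease of the nuclear RNA exosome, the complex that trims and degrades many nuclear RNAs. A fully grown mouse oocyte stores its mRNA and is largely silent in transcription, so that in the first hours after release from the follicle it changes mainly by protein activity, translation and RNA decay: cAMP falls, CDK1 is activated and the nuclear envelope breaks down. The polyA tails of stored mRNAs lengthen or shorten in this period, and selection by oligo-dT reads tail length together with RNA amount. A processed pseudogene is a copy of an mRNA inserted back into the genome, and it often keeps most of the sequence of the gene it came from.

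The knockout could be seen in the counts. Exosc10 (chromosome 4, 148558429-148582401, GRCm38) stood at 0, 1.06 and 3.66 CPM (counts scaled to the library's total over genes with TMM factors; lowest, median and highest) in knockout GV oocytes and at 0.124, 1.70 and 4.89 CPM in knockout GV3h oocytes. In control oocytes it stood at 47.5, 53.6 and 62.9 CPM at GV and at 62.5, 114 and 123 CPM at GV3h, above every knockout oocyte. Total counts over genes were 5381816 to 7727869 in knockout GV oocytes and 5476376 to 8415126 at GV3h, and 20149 to 21753 and 20933 to 22147 genes had a count. The 16 oocyte markers were summed to 30300, 36300 and 42300 CPM at GV and to 35000, 39200 and 46400 CPM at GV3h. The 19 granulosa and cumulus markers came to 266 to 336 and 241 to 356 CPM, most of it from Serpine2, which stood at medians of 194 and 191 CPM. Of their defining genes, Ptx3 was at 0 in all 26 oocytes, and Foxl2 had a median of 0 at both stages. Of the 10 markers of this list that could be tested, 0 passed between stages in edgeR and 1 had an unadjusted p under 0.05, with a median change of -0.08, while DESeq2 called Hsd3b1 (medians of 2.7 and 0.977 CPM) and Gja1 (1.69 and 0 CPM, with 1 GV3h oocyte at 37.7 CPM). Their part in the changes below was not tested. The 9 blood and immune markers summed to at most 14.9 CPM with Hba-a1 and Hbb-bt at 0, and the 8 stromal and endothelial markers to at most 130 CPM, mostly Pecam1, with Cdh5 at 0. The labels name an added ERCC spike-in, but the gene files held 0 spike-in lines, so every change below is relative to the other RNA of the same oocyte.

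Knockout oocytes of the same stage differed from each other more than control oocytes did. Over 9813 genes with a mean of at least 8 CPM, the median correlation (Pearson's r of log2(CPM + 1), across genes, which are not independent) between knockout GV oocytes of 1 female was 0.956, and between V857 and V888 it was 0.844. In control oocytes the same values were 0.972 and 0.955 at GV. With oocytes taken as replicates of a female, 6189 of 14866 genes tested differed between V857 and V888 by edgeR's quasi-likelihood test at an adjusted p under 0.05 (41.6%), 3125 of them higher and 3064 lower in V888. At GV3h, V946 and V983 differed in 1 gene of 14569 (0.00686%), V946 and V993 in 64 of 14094 (0.454%) and V983 and V993 in 33 of 14580 (0.226%). The median correlations do not follow these counts: 0.905 between V946 and V983, 0.936 between V946 and V993 and 0.884 between V983 and V993, with 0.85 among the 3 oocytes of V983 themselves. With no filter on low counts the pairs differed in 97, 359 and 712 genes.

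Within a female, single knockout oocytes also stood apart. The within-female SD on the log2(CPM + 1) scale was over 1 for 119 of the 9813 genes in knockout oocytes (1.21%) and for 23 in control oocytes (0.234%). The genes below, of high SD, were picked after their values were seen: Xbp1, a transcription factor of the unfolded protein response, Ier2, an immediate early gene, and Glis3, a zinc finger transcription factor. Xbp1 was at 0.130, 4.81 and 76.1 CPM at GV and at 0.140, 21.5 and 92.6 CPM at GV3h, while it did not pass 1.96 CPM in any control oocyte. In V983 the 3 oocytes had 0.140, 62.9 and 0.850 CPM of Xbp1, 5.17, 91.4 and 1.98 CPM of Ier2, and 57.5, 0.501 and 17.1 CPM of Glis3. In V888 the oocyte numbered 4 had 76.1 CPM of Xbp1 and 0.595 CPM of Glis3. High and low oocytes were thus found at both stages and within V888 and V983, and Glis3 was low in the V888 and V983 oocytes where Xbp1 was highest. The knockout oocytes V888 numbers 4 and 9 and V983 numbers 1, 2 and 3, 5 in all, had a median correlation under 0.91 with the others of their female. In V983 each such median rests on 2 pairs, and r over its pairs ran from 0.804 to 0.956 (median 0.85). The pair at 0.956 was that of numbers 1 and 3, and number 2 had the lowest median (0.827, against 0.903 and 0.88).

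**Figure D1:**
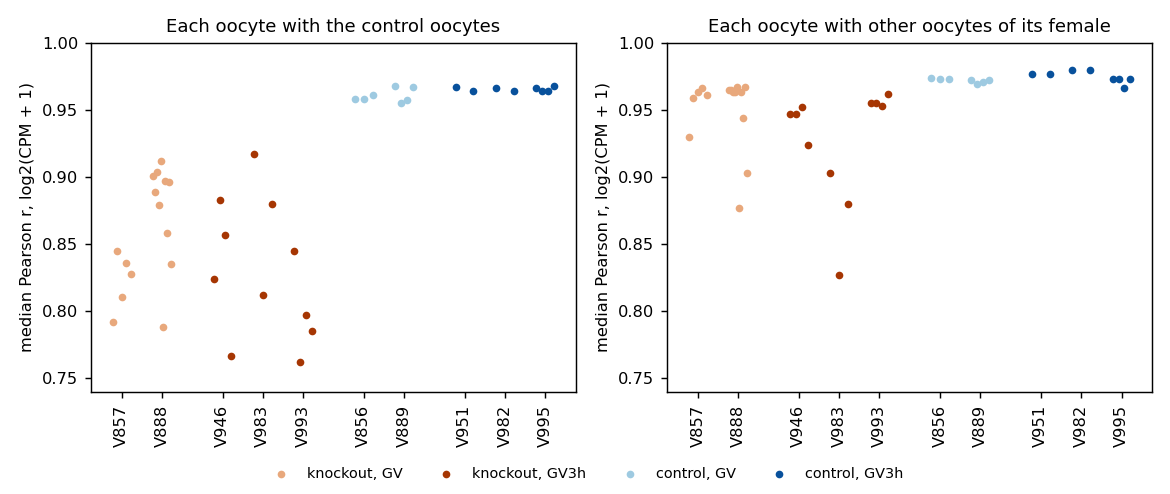
Each point is 1 oocyte, by female: its median Pearson r of log2(CPM + 1) with the control oocytes (left panel) and with the other oocytes of its female (right panel). In the right panel the 5 knockout oocytes under 0.91 are 2 of V888 and all 3 of V983, and in the left panel every knockout oocyte lies below every control oocyte.

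The change across all genes was small against this spread. With oocytes as replicates, 86 of 14280 genes tested passed an adjusted p under 0.05 in edgeR (0.602%), 53 of them higher (0.371%) and 33 lower (0.231%) at GV3h, and 47 of the 86 changed at least 2-fold. Those p-values measure the spread between oocytes, which are not independent within a female. With counts summed per female, 0 of 19251 genes passed in edgeR (0%), 274 had an unadjusted p under 0.05, and DESeq2 called 8. Among the 86, the means of the GV and GV3h females did not overlap for 80, against 1496 of all 14280 genes (10.5%). The oocytes of the stages did not overlap for 10 of the 86, and these 10 were all such genes among the 14280 (0.07%). Without the 5 oocytes of a median correlation under 0.91, a choice made after their values were seen, 1141 genes passed, 446 higher and 695 lower. These included 83 of the 86. That choice took out all of V983, so that GV3h rested on V946 and V993. More genes were lower than higher also with DESeq2 (102 higher, 121 lower), among genes with a mean of at least 50 counts (22 and 26) and when all polyA groups entered one fit (94 and 161), so the balance of rises and falls depends on the setting. Leaving out 1 female at a time gave 34 genes (without V946), 41 (without V993), 466 (without V983, 146 higher and 320 lower), 934 (without V888) or 1548 (without V857), and 16 of the 86 passed in all 5 fits. Without V888 or V857 the GV oocytes were those of 1 female, so that stage and that animal cannot be told apart in those counts.

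**Figure D2:**
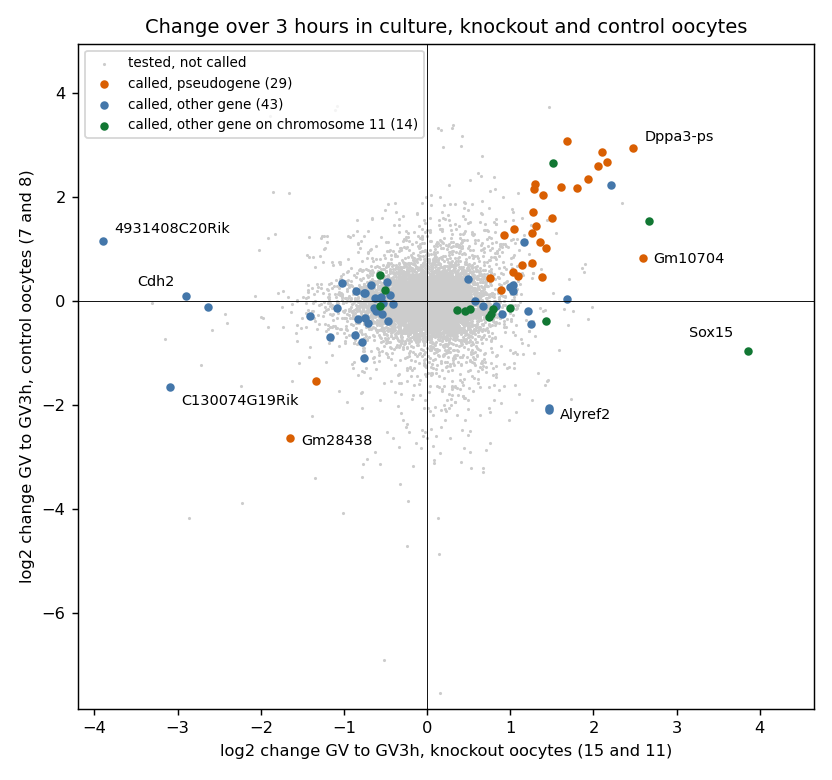
Each point is a gene tested in both genotypes: the log2 change from GV to GV3h in knockout oocytes on the x axis and in control oocytes on the y axis, with genes called in knockout oocytes in colour. Most called pseudogenes, Dppa3-ps among them, lie above 0 on both axes, while Sox15 is high in knockout oocytes (3.86) and below 0 in control oocytes (-0.97).

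Reads at pseudogenes, most of them processed copies, made up the clearest group. Of 354 pseudogenes tested (GENCODE M21 gene types), 29 passed (8.19%), 27 higher and 2 lower, whereas 45 of 12064 protein coding genes (0.373%; 16 higher, 29 lower) and 12 of 1862 other genes (0.644%; 10 higher, 2 lower) passed. All 10 genes whose knockout oocytes did not overlap between stages were pseudogenes: Oaz1-ps, Gm5514, Gm8566, Gm10704, Dppa3-ps, Tdpx-ps1, Dynlt1-ps1, Gm11993, Gm47942 and AC133968.1. With the female as a random block Dppa3-ps, Gm5514, Gm8566, Gm10704, Gm11993 and AC133968.1 kept their call and the other pseudogenes did not. The 27 that rose matched a coding transcript at 92.7% to 100% identity (median 98.3%). Reads can fit both such a copy and its closest gene, so that the counts of each are uncertain, and how far this happened was not tested. At least 90% of 50-base windows were shared with the closest gene in 18 of the 354, of which 2 passed. Stretches of 120 bases of 2 copies that did not overlap between stages follow, each above the coding stretch of its closest gene, to show how few bases tell them apart. Capitals mark the bases that differ between the pair, sequences are GENCODE M21 transcripts on GRCm38 (mm10), 5′ to 3′, and positions in a coding transcript count from 1 at its 5′ end. Dppa3-ps lies at chrX:37625923-37626042 on the minus strand and is matched by positions 171 to 290 of Dppa3. Gm5514 lies at chr19:21937641-21937760 on the plus strand and is matched by positions 373 to 492 of Ldhb.
Dppa3-ps: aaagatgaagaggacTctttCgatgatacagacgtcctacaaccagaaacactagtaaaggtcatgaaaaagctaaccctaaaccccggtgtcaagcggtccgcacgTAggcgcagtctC
Dppa3: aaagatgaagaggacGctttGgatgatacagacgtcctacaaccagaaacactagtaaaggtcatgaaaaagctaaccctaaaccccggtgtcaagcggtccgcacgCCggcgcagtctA
Gm5514: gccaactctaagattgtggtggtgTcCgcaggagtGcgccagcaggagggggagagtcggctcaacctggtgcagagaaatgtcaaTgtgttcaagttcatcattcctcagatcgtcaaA
Ldhb: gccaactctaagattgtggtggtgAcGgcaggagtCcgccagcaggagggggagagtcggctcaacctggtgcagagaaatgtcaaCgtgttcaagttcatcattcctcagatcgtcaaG

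The whole aligned copies differed from the coding transcripts at 8 of 451 aligned columns for Dppa3-ps and 20 of 1002 for Gm5514. Dppa3 protects methylated DNA in the egg and early embryo, Sod1 is the cytosolic superoxide dismutase, and Ldhb is a subunit of lactate dehydrogenase, and all 3 are abundant oocyte mRNAs. Dppa3-ps was at 0.263, 1.92 and 4.82 CPM in knockout GV oocytes and at 8.75, 11.3 and 15.3 CPM at GV3h. Every GV3h oocyte was above every GV oocyte, a log2 change of 2.48 (SE 0.26, edgeR adjusted p = 2.32e-06), and the change was 2.94 in control oocytes. Gm8566, closest to Sod1, was at 0.889, 2.2 and 3.85 CPM at GV and at 6.35, 8.76 and 18.7 CPM at GV3h, again with no overlap (log2 2.11, SE 0.24, edgeR adjusted p = 9.62e-06). Gm5514 was at 9.01, 11.6 and 17.2 CPM and then at 22.0, 29.2 and 41.2 CPM, also with no overlap (log2 1.36, SE 0.13, edgeR adjusted p = 5.24e-07).

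The genes that these copies resemble were not chosen by their change, while the copies were, so their changes are set side by side as a description. The 27 pseudogenes had log2 changes of 0.76 to 2.59 (median 1.36), and their 26 distinct closest coding genes had changes of -0.23 to 0.31 (median 0.07). Of those 26 genes, 0 passed in edgeR or in DESeq2 and 4 had an unadjusted p under 0.05, where 0.602% and 12.1% of all genes did in edgeR, so these counts say little about the coding genes. Counts at Dppa3-ps per 1000 counts at Dppa3, a ratio of counts and not per length, were 0.748 and 1.37 in the GV females V857 and V888, and 5.80, 6.10 and 5.78 in the GV3h females V946, V983 and V993. The ratio of Gm8566 to Sod1 went from 1.67 and 2.59 to 8.86, 10.8 and 9.31 per 1000 in the same females. The ratio of Gm5514 to Ldhb was 3.64 and 4.44 per 1000 at GV and 9.39, 10.0 and 9.70 per 1000 at GV3h. All 3 were shown because their oocytes did not overlap between stages, which sets the order of the females. Of the 27, 8 passed between V857 and V888, where 41.6% of all genes did, and 0 between any pair of GV3h females, where at most 0.454% of all genes did.

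**Figure D3:**
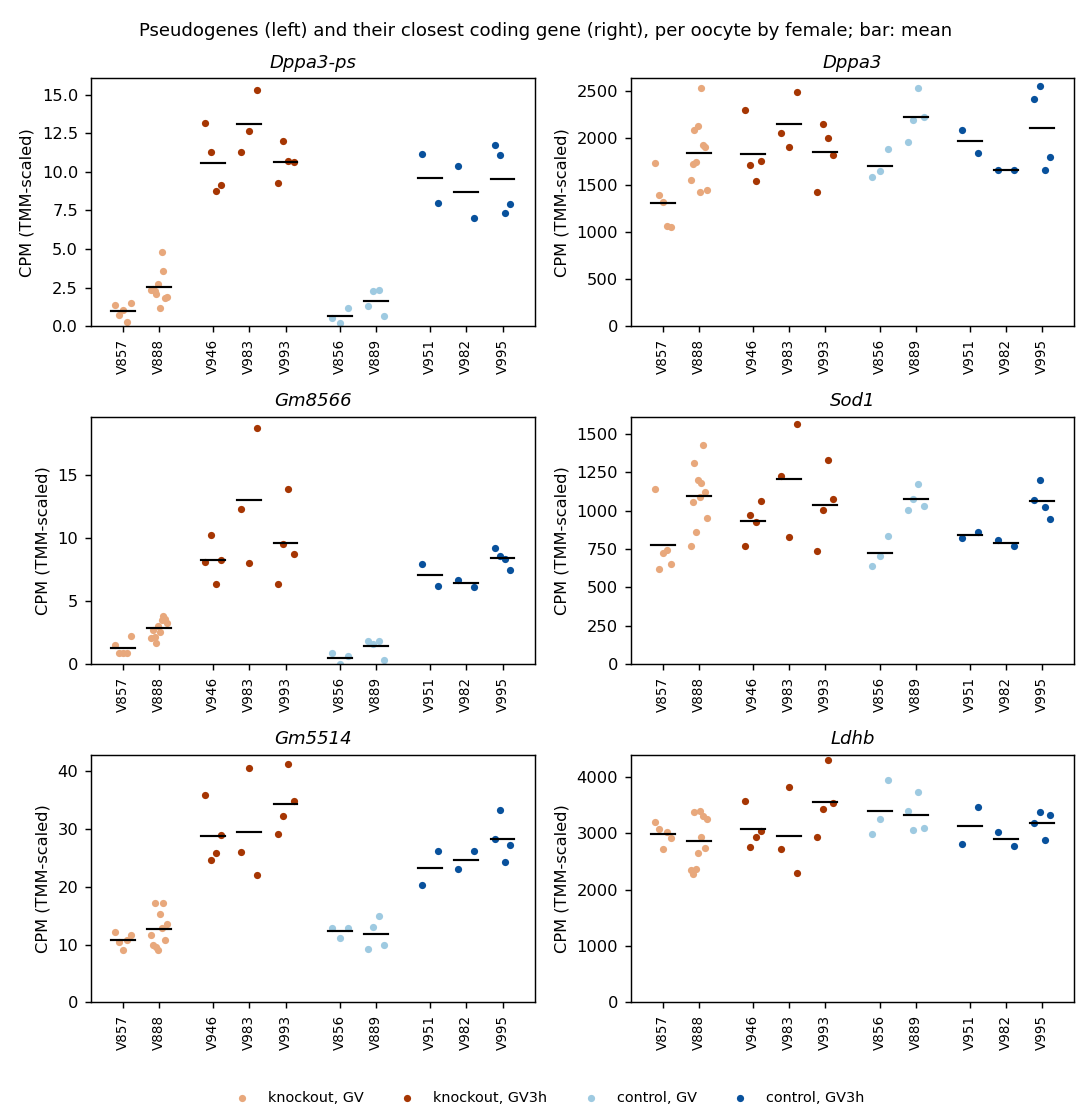
CPM of Dppa3-ps, Gm8566 and Gm5514 (left) and of their closest coding genes Dppa3, Sod1 and Ldhb (right), 1 point per oocyte, by female, stage and genotype, with bars at the female means. The pseudogenes are higher in every GV3h female than in every GV female of both genotypes, and the ranges of the coding genes overlap between stages.

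Both genotypes showed the shift of the copies that passed. All 29 pseudogenes had the same sign of change in control oocytes, and 16 of the 27 that rose also passed the test in controls, where the median over the 27 was 1.44 and 54 of 15635 genes of every kind passed (0.345%). For the difference between genotypes, 0 of the 27 passed and 3 had an unadjusted p under 0.05, where 0.0959% and 9.08% of all genes did. The copies were then split by identity and by the level of the closest gene. Of 136 copies at 95% identity or more, 105 were above 0 and 25 passed, with a median change of 0.38, against a median of -0.05 and 3 passing among 192 less similar copies. Of the 136, the 62 whose closest gene had at least 100 CPM had a median of 0.66, with 19 passing, and the other 74 had a median of 0.24, with 6 passing. Over all pseudogenes tested the median was 0.09, against 0.12 in control oocytes, and over all 14280 genes it was -0.00439. Pseudogenes made up 0.46% of the counts of knockout oocytes at GV and 0.48% at GV3h on average, and the oocytes overlapped. Other copies also differed between females of 1 stage: Gm10704, a copy of Rtraf, rose from 0.146, 1.06 and 10.8 CPM to 12, 23.4 and 29.7 CPM in knockout oocytes (log2 2.59, SE 0.53, edgeR adjusted p = 0.014), but V857 had 9.39 CPM and V888 0.696 CPM, and among control females V856 had 10.1 and V982 27.5 CPM where the others had 0.671 to 1.99 CPM. Its change was 1.21 without V888 and 4.91 without V857. The share of reads outside genes was 11.5% at GV and 12.3% at GV3h on average, and the share at a place covered by more than 1 gene was 2.80% and 2.77%. The latter is not the share of reads that fit both a copy and its closest gene, which was not measured. The part of either in the pseudogene counts was not tested. The labels give no sequencing run or read length for either stage, and whether these differed between stages was not tested. Of the 354 pseudogenes tested 157 were below 0. Among the 29 that passed only 2 fell, Gm13491 (log2 -1.33) and Gm28438 (log2 -1.65), with changes of -1.53 and -2.63 in control oocytes. Gm13491 was at -0.49 without V888 and did not pass.

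Outside the pseudogenes, 57 genes passed, 26 higher and 31 lower, and the largest rise was that of Sox15, a transcription factor of the SRY-box family (chromosome 11, 69655314-69656727). It was at 0, 1.61 and 8.27 CPM in knockout GV oocytes and at 6.09, 35.1 and 82.6 CPM at GV3h. Only the lowest GV3h oocyte, 1 of V983, lay within the GV range. The log2 change was 3.86 (SE 0.49, edgeR adjusted p = 4.83e-05), and it was 2.75 to 5.07 when each female was left out in turn. With the female as a random block it did not pass, nor did Nup88 below, while Eif4a1 did. The female means were 5.90 and 1.15 CPM at GV and 29.3, 33.9 and 55.2 CPM at GV3h, whereas control females had 10.4 and 8.25 CPM at GV and 7.67, 7.20 and 1.74 CPM at GV3h.

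Eif4a1, an RNA helicase of translation initiation that lies beside Sox15 (chromosome 11, 69666936-69672423), was at 37.8, 45.4 and 61.5 CPM and then at 61.2, 81.5 and 96.4 CPM. The groups met only at their edges, and the change was 0.75 (SE 0.10, edgeR adjusted p = 4.83e-05). Nup88, a protein of the nuclear pore (chromosome 11, 70943058-70969973), was at 174, 208 and 239 CPM and then at 237, 290 and 353 CPM, again meeting only at the edges (log2 0.52, SE 0.07, edgeR adjusted p = 9.32e-05). These 3 were the genes other than pseudogenes that passed in all 5 fits without 1 female. The 1.95 Mb of chromosome 11 from the start of Ctc1 (69015911) to the end of Nup88 (70969973), bounds picked after the values were seen, held 67 tested genes. Of these 9 passed, the genes at both ends included, and the median change was 0.01. Since the bounds were set on called genes, nothing is read from that count. Beside the 3 above, Pfn1 (profilin, log2 0.45), Pld2 (phospholipase D, 0.80), Clec10a (a C-type lectin, 0.99) and Tnfsf13os (1.43) rose, while Rnf167 (a ubiquitin ligase, -0.57) and Ctc1 (of the telomere CST complex, -0.57) fell. On the whole of chromosome 11, 17 of 1033 genes passed (1.65%, against 0.602% of all genes), 14 of them higher. Tnfsf13os is an antisense gene that overlaps the tested genes Tnfsfm13 (0.13) and Tnfsf13 (-0.61) on the other strand. The labels do not say whether counting used strand, and how far reads were shared between them was not tested.

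**Figure D4:**
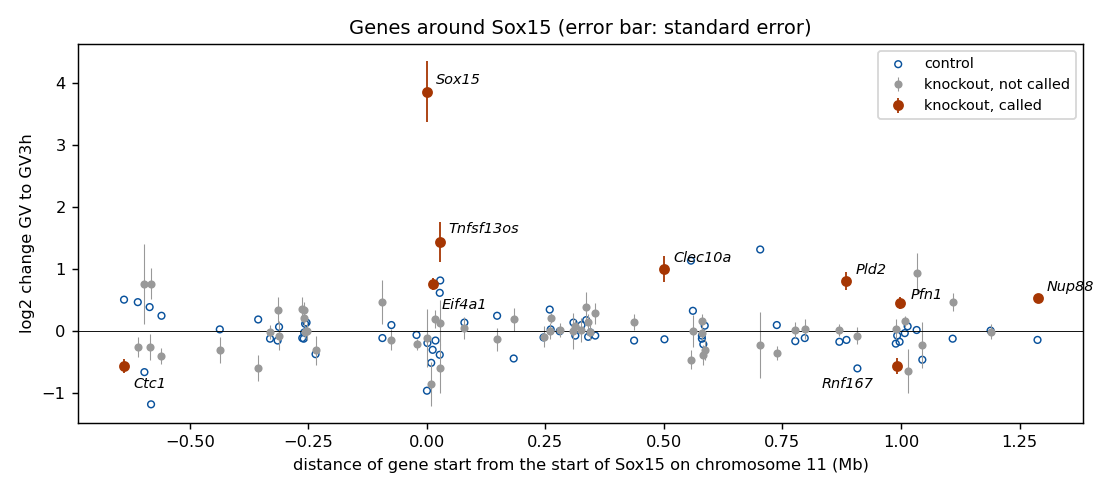
Each point is a tested gene between Ctc1 and Nup88 on chromosome 11, placed by its distance from the start of Sox15, with its log2 change from GV to GV3h in knockout oocytes (filled, with SE) and in control oocytes (open). The 9 genes that passed in knockout oocytes lie among genes around 0 (median 0.01), and Sox15 reaches 3.86.

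Other genes rose away from this stretch. Ndrg3, a member of the NDRG family, went from 4.15, 9.93 and 12.9 CPM to 8.36, 20.4 and 33.7 CPM (log2 1.21, SE 0.21, edgeR adjusted p = 0.00196), with overlap of the oocytes and a change of -0.20 in control oocytes. Without V993 its change was 0.76 and did not pass. Hint1, a nucleotide hydrolase also on chromosome 11, went from 88.2, 122 and 174 CPM to 148, 202 and 410 CPM (log2 0.77, SE 0.14, edgeR adjusted p = 0.00391). Ddit4, an inhibitor of mTORC1 induced by stress, rose by 0.57 from a median of 62.5 to one of 93.2 CPM, also with overlap. Slc16a5, a monocarboxylate transporter, rose by 1.52, from 1.17, 6.91 and 24.1 CPM to 8.5, 26.7 and 36.0 CPM, and its change was 2.65 in control oocytes, but without V888 it was 0.73 and did not pass. Gm10800 rose by 2.21, with 2.24 in control oocytes.

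**Figure D5:**
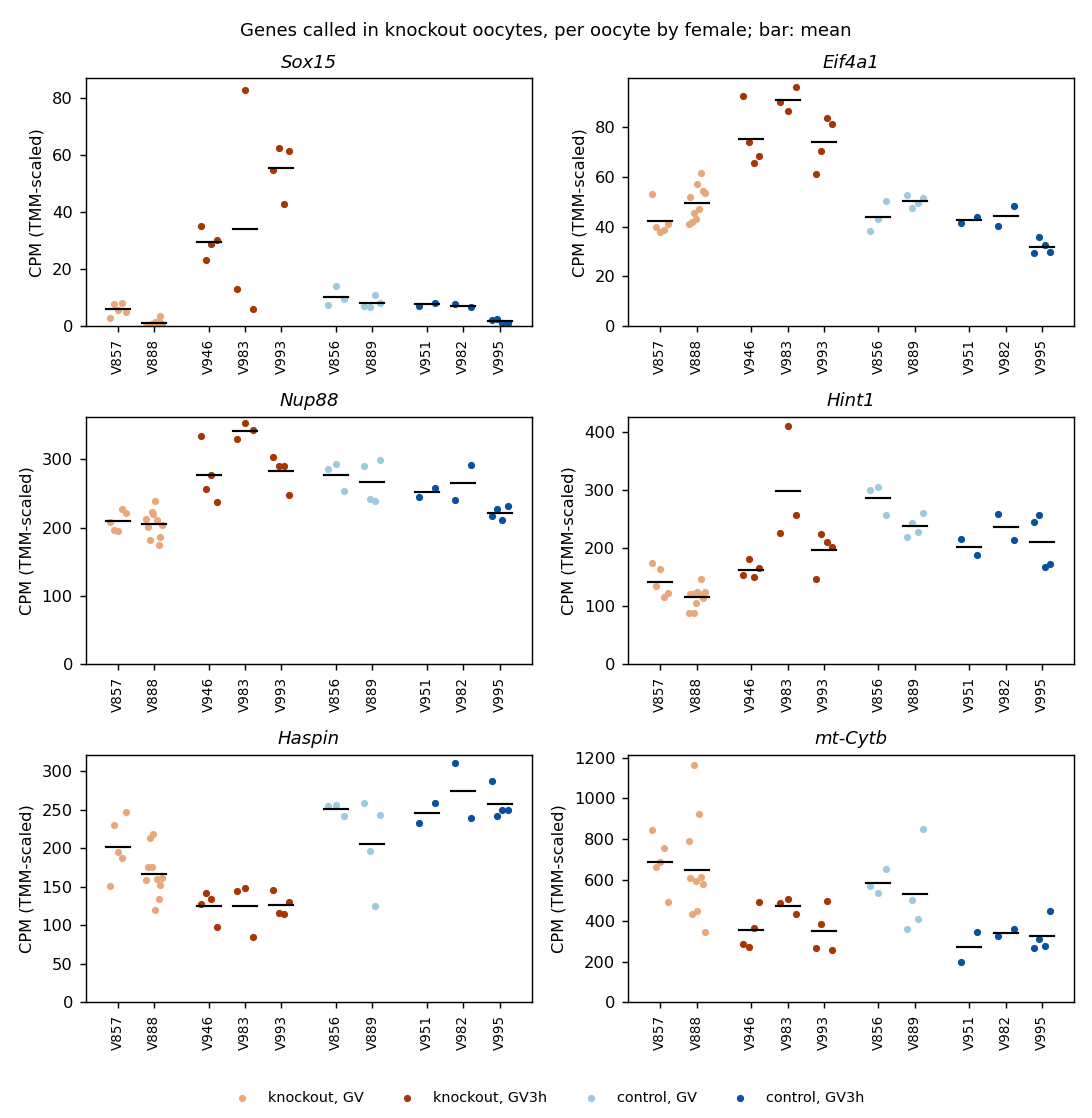
CPM of Sox15, Eif4a1, Nup88, Hint1, Haspin and mt-Cytb, 1 point per oocyte, by female, stage and genotype, with bars at the female means. Sox15 and Eif4a1 are higher in the 3 knockout GV3h females than in V857 and V888 and show no such step in control oocytes, while mt-Cytb is lower at GV3h in both genotypes.

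The falls were of several kinds. mt-Cytb, the mitochondrial cytochrome b of respiratory complex III, fell from 344, 615 and 1170 CPM to 256, 383 and 504 CPM (log2 -0.78, SE 0.17, edgeR adjusted p = 0.0191), and mt-Nd1, a subunit of complex I, fell by 0.75. Of 10 mitochondrial genes tested these 2 passed in edgeR, where 0.602% of all genes did, DESeq2 called 5 (223 of all 14280), 7 had an unadjusted p under 0.05 (12.1% of all genes), 8 were below 0, and the median was -0.44 against -0.36 in control oocytes. Mitochondrial genes made up 0.414% ± 0.1 (SD, n = 15 oocytes) of the counts at GV and 0.338% ± 0.0576 (SD, n = 11 oocytes) at GV3h, and the oocytes overlapped. The female means overlapped too: 0.47% in V857 and 0.386% in V888 at GV, and 0.321%, 0.387% and 0.32% in V946, V983 and V993 at GV3h. Pcdh9, a protocadherin, fell from 122, 249 and 319 CPM to 69.7, 130 and 195 CPM (log2 -0.76, SE 0.16, edgeR adjusted p = 0.014), and stood at 0.16 in control oocytes. Blvra (biliverdin reductase, -0.87), Oxr1 (a factor of oxidation resistance, -0.85), Exoc2 (a subunit of the exocyst, -0.84), Trak2 (an adaptor of mitochondrial transport, -0.76) and Mfsd6 (-1.09) also fell, each with oocytes that overlapped between stages. In the same order, their changes in control oocytes were -0.66, 0.19, -0.34, -1.09 and -0.14. Without V888 the change of Blvra was -0.33 and did not pass, and Blvra, Exoc2, Trak2, Mfsd6 and Pcdh9 did not pass without V946. Of the 5 fits without 1 female, Mfsd6 passed in 2, and Blvra, Oxr1, Exoc2, Trak2, Pcdh9 and mt-Cytb in 3 each. Oxr1 passed in 5 of 13 alternatives. Haspin, the kinase of histone H3 threonine in mitosis and meiosis, fell from 120, 175 and 246 CPM to 84.3, 130 and 148 CPM (log2 -0.51, edgeR adjusted p = 0.0191).

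The largest falls were of genes with few counts. The transcript 4931408C20Rik fell by 3.89, from 0.174, 4.01 and 61.4 CPM to 0, 0.690 and 4.46 CPM, but V857 had a mean of 48.4 CPM and V888 of 2.66 CPM. Without V857 its change was -1.18 and did not pass. C130074G19Rik fell by 3.09, from 0.149, 9.13 and 20.4 CPM to 0, 0.734 and 2.63 CPM. Cdh2, the adhesion protein N-cadherin, fell by 2.90, from 0, 3.99 and 17.0 CPM to 0, 0.489 and 1.5 CPM, but without V888 its change was -1.18 and did not pass. B020011L13Rik fell by 2.63, although V993 kept a mean of 6.34 CPM where V946 and V983 had 0.136 and 0.135 CPM, and its change without V993 was -6.57. All of these overlapped between stages. Their changes in control oocytes were -1.64 for C130074G19Rik, 0.09 for Cdh2 and -0.11 for B020011L13Rik. For 4931408C20Rik it was 1.17, with at most 0.677 CPM in any control oocyte.

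Whether the change in knockout oocytes differed from that in control oocytes was tested as an interaction. With oocytes as replicates 15 of 15635 genes passed in edgeR (0.0959%), 12 with a higher and 3 with a lower change in knockout oocytes, and 0 were pseudogenes. With females as replicates 0 of 19257 passed in edgeR (0%), 480 had an unadjusted p under 0.05 and DESeq2 called 2. With the female as a random block 0 passed, and without control female V995 the oocyte fit called 1 gene and 0 of the 15. Of the 15, 7 lay on chromosome 11, where 1113 genes were tested (0.629%). The difference was 4.83 for Sox15 (SE 0.73, edgeR adjusted p = 0.000394), 1.06 for Eif4a1 (SE 0.16, edgeR adjusted p = 0.000391), 0.68 for Nup88 and 1.02 for Hint1, and in all 4 the knockout oocytes rose while the control change was below 0. Aatf, a factor of ribosome assembly and apoptosis (-0.78), Unc5a, a netrin receptor (-0.86), and Slc16a11, a monocarboxylate transporter (-1.59), had the lower change in knockout oocytes. Their changes in knockout and control oocytes were -0.33 and 0.45, -0.49 and 0.37, and -0.47 and 1.13. For Aatf and Slc16a11 the larger change was thus that of control oocytes.

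Other genes among the 15 also had their larger change in control oocytes. Gm26917, a long noncoding RNA gene, had 159, 476 and 1250 CPM in knockout GV oocytes and 74.8, 505 and 1200 CPM at GV3h, with a change of 0.15 (SE 0.31, edgeR adjusted p = 0.88). Control female V856 had a mean of 144 CPM and V889 of 1.34 CPM, and no control GV3h oocyte passed 0.795 CPM, and without V856 the difference was 2.19 and did not pass. Gm26695 was at 0.977 to 6.70 CPM across the knockout oocytes of both stages and had 0 counts in all 8 control GV3h oocytes, so that its fitted difference of 5.02 depends on the prior count and is no fold. Ctsl, the lysosomal protease cathepsin L, was at medians of 7.47 and 8.93 CPM in knockout oocytes and of 4.09 and 0.445 CPM in control oocytes (difference 3.43). Alyref2, of an mRNA export factor family (difference 3.53), and B930036N10Rik (3.57) overlap in part on opposite strands. The labels do not say whether counting used strand, and how far reads were shared between them was not tested. In knockout oocytes they rose by 1.46 and 1.47 (edgeR adjusted p = 0.0159 and 0.0236). They were high in knockout female V993 (25.5 and 30.6 CPM) and in control female V889 (46.9 and 62.4 CPM) and below 10 CPM on average in every other female, and without V889 the differences were 0.56 and 0.46 and did not pass.

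No gene of the lists for meiotic resumption and for the response to culture passed in edgeR. The 13 gene lists held 235 distinct genes, of which 201 were tested. Of these 0 passed in edgeR, 33 had an unadjusted p under 0.05 (16.4%, against 12.1% of all 14280 genes), DESeq2 called 4 against 223 over all genes, and the median change was 0.0117. Of 25 tested genes of CDK1 activation 4 had an unadjusted p under 0.05, with a median of 0.06. Ccnb1, the cyclin B that activates CDK1, was at 0.19, Cdk1 at 0.17 and Mos, the kinase upstream of MAPK, at 0.07. The 4 that DESeq2 called were Ccnb2 (0.34, edgeR adjusted p = 0.106), Cdc25a (-0.33, edgeR adjusted p = 0.0651), Maff and Ern1. Among 14 genes of cAMP signalling the median was -0.05, among 16 of the nuclear lamina and envelope -0.03, and among 15 mRNAs translated or polyadenylated during maturation -0.05. An unadjusted p under 0.05 was found for 1, 1 and 4 of these genes, where 12.1% of all genes had it, and 1 of the 4 was higher. The 15 mRNAs summed to medians of 11300 CPM at GV and 9760 CPM at GV3h, with overlap of the oocytes, and of 12400 and 12800 CPM in control oocytes. The motif of the cytoplasmic polyadenylation element, searched as TTTTAT or TTTTAAT on the transcript's own strand in its last 150 bases, was held by 24.2% of coding genes, a description and not a site. The 2903 genes with it had a median of -0.0206, with 2 higher and 6 lower calls, and the 9091 without it one of -0.00524, with 14 higher and 23 lower calls.

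Of the genes on the stress lists 0 passed in edgeR, and the counts at an unadjusted p under 0.05 below stand against 12.1% of all genes and those of DESeq2 against 223 of 14280. Of 13 immediate early genes 2 had an unadjusted p under 0.05, the median was 0.42 against 0.14 in control oocytes, and Maff, a small Maf transcription factor called by DESeq2, was at 0.95 (edgeR adjusted p = 0.129). Of 12 cytosolic chaperones 4 had such a p, with a median of 0.23 against -0.10 in control oocytes. Hspb1, a small heat shock protein, was at 1.35 (edgeR adjusted p = 0.174) and Hspa8, the constitutive Hsp70, at 0.87 (edgeR adjusted p = 0.167). Of 15 genes of the unfolded protein response 6 had such a p, with a median of 0.24 against -0.01, and DESeq2 called Ern1, the kinase and RNase that senses unfolded protein, at -0.29 (edgeR adjusted p = 0.12). The summed level had medians at GV and GV3h of 3230 and 3220 CPM for this list, 1510 and 2150 CPM for the cytosolic chaperones and 134 and 184 CPM for the immediate early genes, and the oocytes overlapped between stages for all 3. The median was 0.01 for p53 targets, 0.02 for metallothioneins and oxidative stress, -0.07 for 17 genes of the RNA exosome and its cofactors, -0.02 for 30 genes of mRNA storage and decay, and -0.02 for 15 endosomal genes. Of 12 tested noncoding RNAs with short half-lives or that host snoRNAs 5 had an unadjusted p under 0.05, with a median of 0.24 against -0.21 in control oocytes. Of 82 cytosolic ribosomal protein genes 0 passed in edgeR, 5 had an unadjusted p under 0.05 and DESeq2 called 1, and of 26 histone genes these counts were 0, 6 and 1, with a median of -0.28.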

How the data were processed

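Single-oocyte polyA libraries (oligo-dT capture, whole-transcript amplification and Nextera libraries, per the labels' protocols) were deposited as raw counts of reads per gene. Per the submitters' processing notes the authors used cutadapt 2.5, FastQC 0.11.8, STAR 2.7.2a, SAMtools 1.9, HTSeq 0.9.1, R 3.5.1 and DESeq2 1.24.0 with build mm10. Their options, annotation release, strand setting and read length are not given in the sources used here. All values above were computed from the deposited counts of 55573 gene IDs, of which 55394 had a symbol. Lines that name no gene stayed out of library sizes.

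Changes were tested with edgeR 4.0.16 in R 4.3.3 (TMM scaling, filterByExpr, glmQLFit and glmQLFTest, two-sided, Benjamini-Hochberg over all genes tested, called under 0.05), with oocytes as replicates and with counts summed per female, and for the difference from control oocytes as an interaction. CPM values are TMM-scaled, and the depth of 4638718 to 8415126 counts per oocyte limits genes with few counts. Alternatives were DESeq2 1.42.0, limma 3.58.1 (voom, treating the female as a random effect, consensus correlation 0.297), other scalings and filters, and each female left out. Copies were matched to coding transcripts of GENCODE M21 with BLAST 2.17.0+. The fits were tested on simulated oocytes drawn with no difference between females, which says nothing on how they handle the spread between females. Named genes were Exosc10, the 12 largest rises and 12 largest falls among called genes whose average log2 CPM was 2 or more and whose female means did not overlap, genes called in the interaction, and list members. Ddit4, Haspin, mt-Nd1, Gm28438, called genes of the chromosome 11 stretch and those of high spread were named after their values were seen. The oocytes compared and the gene lists were chosen with earlier results of these data known.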

Additional observations from a re-analysis of the deposited data

Results flagged for a closer look

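The change from GV to GV3h differed between knockout and control oocytes for 15 genes by edgeR's interaction test with oocytes as replicates, and 0 of them passed with females as replicates. Each value is the log2 change in knockout oocytes minus that in control oocytes. On chromosome 11 they were Sox15 (4.83), Eif4a1 (1.06), Nup88 (0.68), Hint1 (1.02), 9230020A06Rik (3.88), Aatf (-0.78) and Slc16a11 (-1.59). Elsewhere they were Gm26917 (7.70, and 2.19 to 8.91 without 1 female), Gm26695 (5.02, which is no fold since control GV3h oocytes had 0 counts), B930036N10Rik (3.57, and 0.46 to 4.30), Alyref2 (3.53, and 0.56 to 4.26), Ctsl (3.43), E330020D12Rik (2.51), Gm28496 (1.88) and Unc5a (-0.86). The lincRNA 9230020A06Rik was at 11.1 CPM in V983 and at 0.0356 to 1.86 CPM in the other knockout females. E330020D12Rik had a median of 5.05 CPM in knockout GV and 4.29 CPM in knockout GV3h oocytes, and of 8.17 and 1.73 CPM in control oocytes.

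A gap between 1 control oocyte and the rest of its group, by Dixon's criterion at 95%, was found in 6 of 93 groups of values, and chance gives about 1 in 20. The share of counts on histone genes reached 0.0338% in 1 control GV3h oocyte. Among control GV oocytes 1 had 54.8 CPM of Trak2, 1 had 116 CPM of Pcdh9, the lowest, and 1 had 4.63 CPM of Slc16a11. 4931408C20Rik was at 0.164 CPM in 1 control GV oocyte and at 0.677 CPM in 1 control GV3h oocyte, where the others were at 0. The knockout groups, with 15 and 11 oocytes, were too large for this criterion.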

How the results depend on the processing

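Of 554 values of the 39 changes and differences of named genes, all from fits with oocytes as replicates, 0 reversed, 414 kept their call and 140 lost it. In the main edgeR fits with females as replicates 0 genes passed. With oocytes as replicates the 86 calls in knockout oocytes became 48 among genes with a mean of at least 50 counts, 223 with DESeq2, 10 with limma voom and the female as a random block, 255 when all polyA groups entered one fit, and 34 to 1548 without 1 female. Of the 10 with the random block 7 were among the 86. Of the 86 calls 61.6% were higher, but more were lower than higher at a mean of at least 50 counts (22 higher, 26 lower), with DESeq2 (102 and 121), in one fit of all groups (94 and 161), without V983 (146 and 320) and without 5 oocytes (446 and 695), while 29 were higher and 5 lower without V946. Choices made after the data were seen gave 57 calls when pseudogenes were not counted and 1141 without the 5 oocytes of a median correlation under 0.91 with their female. Leaving these 5 out removed all of V983. The 15 interaction calls became 67 with DESeq2, 0 with the random block, 8 outside chromosome 11, 337 without those 5 oocytes, and 1 to 604 without 1 female (358 without V857, 604 without V888, 59 without V983, 33 without V856, 49 without V889, 1 without V995). With females as replicates the 0 calls became 27 with no filter and 8 with DESeq2, and 0 to 2 without 1 female. For the interaction they became 64 with no filter and 2 with DESeq2, and 0 to 2 without 1 female. With no filter, V946 and V983 differed in 97 genes, V946 and V993 in 359 and V983 and V993 in 712. No paired analysis was possible because each female gave oocytes of 1 stage and the oocyte numbers only count oocytes within a female. The stage difference rests on 2 and 3 knockout females, and the 2 GV females differed in 41.6% of genes. Fits without V857, V888, V856 or V889 left 1 female in a GV group, so that stage and animal cannot be told apart there.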
